A study of Mus musculus with 6 samples.

Results

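The genes of sodium channels, transient receptor potential (TRP) channels and mechanosensitive channels were compared in sorted muscle and epithelial cells of the mouse embryo's trachea. They were taken from the deposited gene table by their symbols: the voltage-gated sodium channel subunits (Scn), the epithelial sodium channel subunits (Scnn1), the acid-sensing channels (Asic), the TRP channels of the A, C, M and V families, the polycystins (Pkd), the mucolipins (Mcoln), the pacemaker channels (Hcn), Piezo1 and Piezo2, and the transmembrane channel-like genes (Tmc). The symbol patterns took 67 of the 23478 genes in the table. 1 of the 67, Trpc4ap, encodes a protein associated with TRPC4 and not a channel. All embryos were at embryonic day 13.5 and carried Bmp4 f/f, a pair of floxed alleles, and gamma SMA eGFP, a reporter of a smooth muscle actin gene. No Cre allele is named for any library, and all 6 are labelled as controls. The muscle group (3 libraries) was sorted by GFP, so it holds the cells in which that reporter was active, and the epithelium group (3 libraries) was sorted by an APC-labelled antibody to surface Epcam. Nothing states how many embryos went into a library or whether libraries came from separate embryos, so p-values measure the spread between these libraries, which may be technical.

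Cation channels of these families set the resting and action potential of a cell, let in calcium or sodium after a stimulus, and turn membrane stretch into current. Voltage-gated sodium channels consist of a pore-forming alpha subunit and auxiliary beta subunits, and they are best known from nerve, heart and skeletal muscle. The epithelial sodium channel, built of alpha, beta and gamma subunits, carries sodium across the apical membrane of airway epithelium, where it takes part in fluid absorption. TRPM4 and TRPM5 are opened by calcium inside the cell and carry monovalent cations but hardly any calcium, so that they turn a calcium signal into a depolarisation. PIEZO1 and PIEZO2 open when the membrane is stretched.

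In edgeR's test, all 8 smooth muscle markers were called for muscle and all 8 epithelial markers for epithelium. Of 5 cartilage markers, 2 (Sox9 and Col9a1) were also called for muscle, and the summed level of the 5 was 652 to 1129 CPM in muscle and 219 to 462 CPM in epithelium. Of 7 glial markers, 1 (Erbb3) was called for epithelium. The part of cartilage or glial cells in the differences of the channel genes was not tested. Total counts ranged from 11847432 to 54848820 per library. 3 libraries, muscle replicate 2 and epithelium replicates 2 and 3, stood apart by their counts in 1456 olfactory and vomeronasal receptor genes, which belong to sensory neurons. Levels are given in CPM, the count scaled by the effective library size. Summed over these receptor genes, they were 779, 1439 and 603 CPM in those libraries and 7.40 to 45.1 in the other 3. The term background counts is used for them. The median level of the 67 channel genes was 5.09, 8.02 and 4.24 CPM in the libraries with many background counts and 0.912 to 1.26 CPM in the others. 35 of the 65 tested channel genes (53.8%) were higher in all 3 of those libraries than in any of the other 3, against 28.4% of all tested genes. The part of background counts in the differences described below was not tested. Without those 3 libraries the test compares 2 muscle libraries with 1 epithelial one, and its values are given for most of the genes named.

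**Figure D1:**
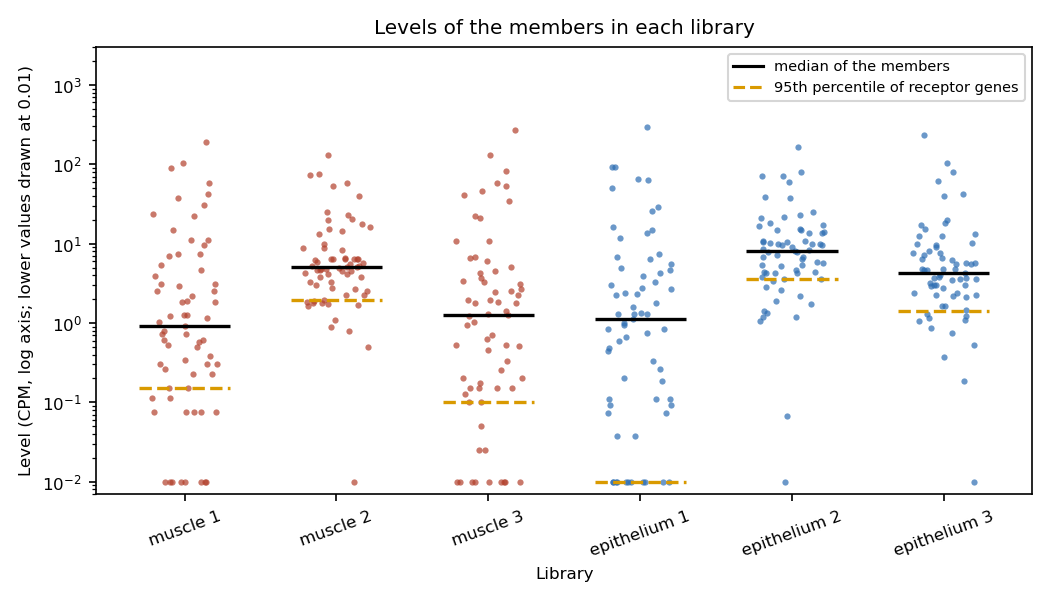
Level of each of the 67 genes (points) in each library, in CPM on a log axis, with the median of the genes (black line) and the 95th percentile of the receptor genes (dashed line). Muscle replicate 2 and epithelium replicates 2 and 3 have medians of 4.24 to 8.02 CPM, above the 0.912 to 1.26 CPM of the other libraries, and their receptor genes reach 1.43 to 3.54 CPM at the 95th percentile.

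Of the 67 genes, 65 had enough counts to be tested. 3 passed an adjusted p of 0.05 in edgeR's quasi-likelihood test: Trpm5 was higher in muscle, and Trpm4 and Tmc4 were higher in epithelium. This is 4.62% of the tested members, where 10.7% of all 19375 tested genes passed (6.58% higher in muscle and 4.11% higher in epithelium). An unadjusted p under 0.05 was reached by 7 members (10.8%), against 21.7% of all tested genes. The median log2 fold change of muscle over epithelium (log2FC) was -0.54 over the tested members and -0.10 over all tested genes. 31 of the 65 had an average log2 CPM under 2, and none of the 3 called genes was among them. Among genes at or above that level, 3 of 34 members (8.82%) passed, against 16.2% of all such genes. The groups did not overlap in 12 members (18.5%), against 26.9% of all tested genes. Of the 65 tested members, 5 did not overlap and were higher in muscle, against 16.4% of all tested genes. 7 of the 65 did not overlap and were higher in epithelium, against 10.5% of all tested genes. Without the 3 libraries with many background counts, a comparison chosen after the data were seen, 9 members passed: 5 were higher in muscle and 4 in epithelium, where 8.56% and 7.02% of 16641 tested genes passed in these directions. In muscle they were Trpm5, Piezo2, Trpc6, Trpv2 and Scn7a, and in epithelium they included Tmc4, Trpm4 and Trpv6. Only 52 of the members were tested in that fit. It rests on epithelium replicate 1 alone for the epithelium, which is assumed to vary like the muscle libraries.

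The count of members depended on the fit. The Wald test of DESeq2 covered 50 members. In it, 1 member was higher in muscle and 5 in epithelium, where 13.9% and 11.2% of all genes were called. Among the 5 were Tmc4, Trpm4, Scnn1g and Trpv6. With limma-voom there were 3 in each direction, with Piezo2 and Trpv2 beside Trpm5 in muscle, where 8.21% and 4.62% of all genes were called. With a covariate for background counts, 2 members (8.92% of all genes) and 3 members (6.31%) were called. With only the libraries that carry the later number in the table header, which leaves out replicate 2 of each group, 53 members were tested. There, 1 member (10.7% of all genes) and 4 members (6.93%) were called. At an adjusted p under 0.01 in edgeR, Trpm5 and Tmc4 alone remained, where 2.99% and 2.09% of all genes passed. Trpm5 and Tmc4 were thus called in each of these fits.

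**Figure D2:**
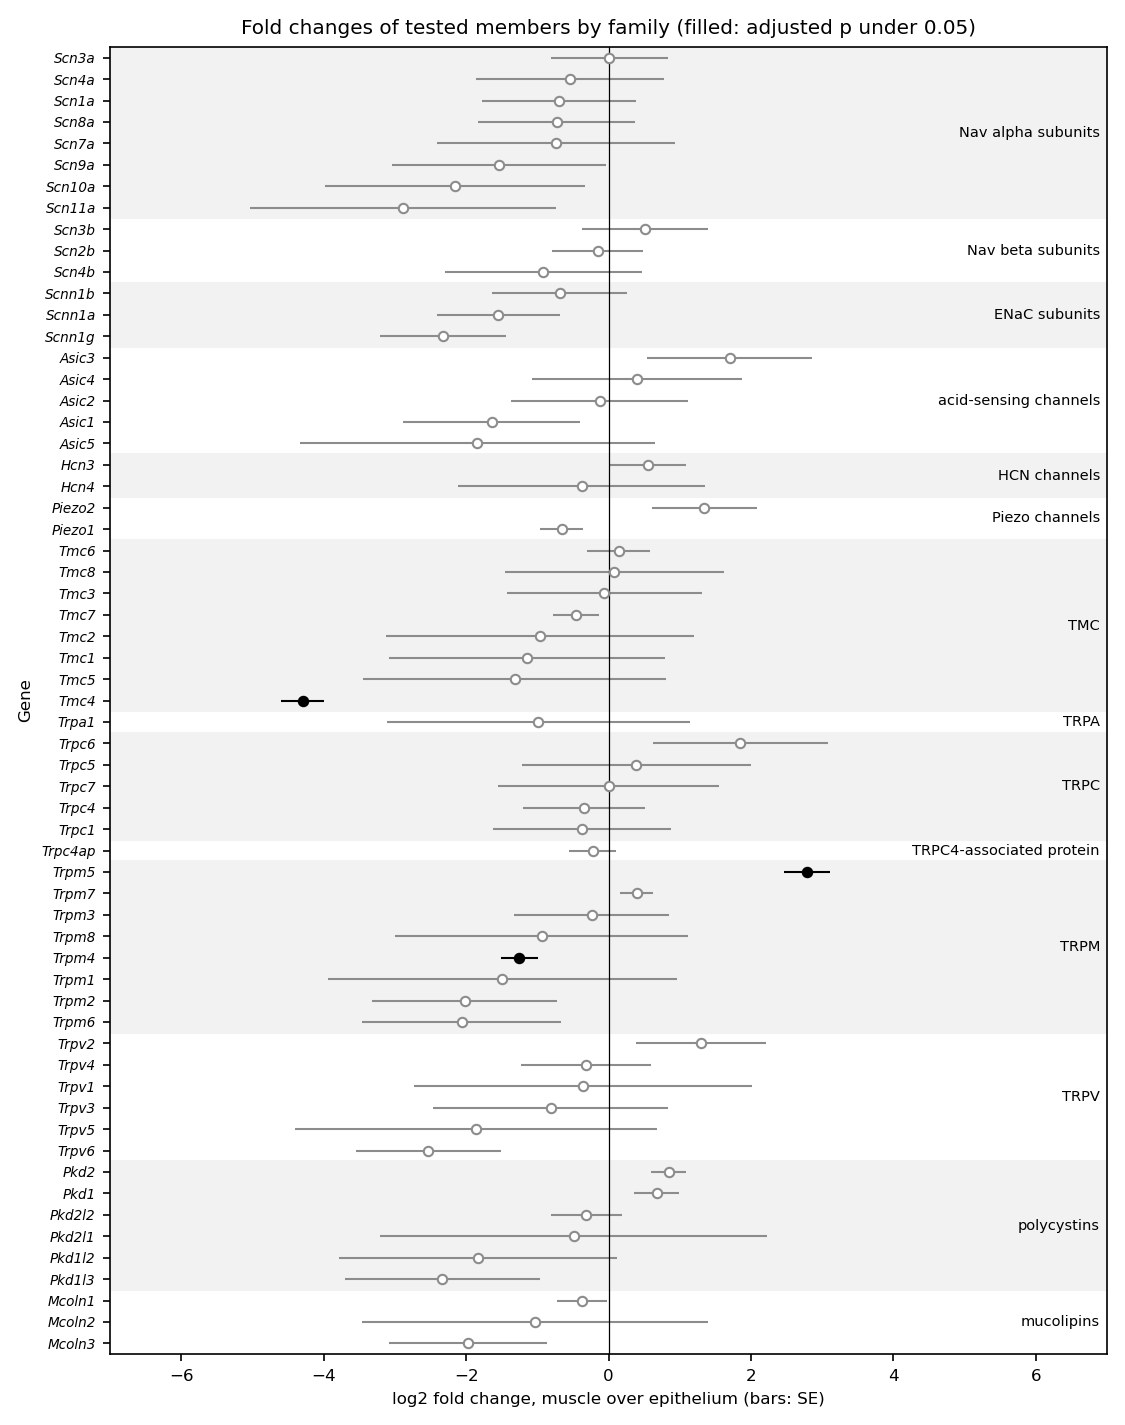
log2FC of muscle over epithelium with its standard error for 61 of the 65 tested genes, grouped by family. Filled points mark the 3 genes past an adjusted p of 0.05, Trpm5 at 2.78, Trpm4 at -1.25 and Tmc4 at -4.30. Long bars belong to genes of low level.

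The sequences upstream of Trpm5 and Tmc4, the pair of genes with the firmest calls in opposite directions, are given here. That of Trpc6, a receptor-operated calcium channel gene, is given beside them. Trpc6 did not overlap between groups but did not pass the threshold, and Trpm4, which passed, is not shown. They come from RefSeq (GRCm38.p6) and run on the gene's strand up to the base before the annotated start. The window of Trpm5 is chr7:143094643-143094892 (minus strand), that of Tmc4 is chr7:3677554-3677788 (minus strand, shortened where an exon of the next gene begins) and that of Trpc6 is chr9:8543892-8544141 (plus strand). Capitals mark a CArG box (searched on both strands), the motif bound by serum response factor, which is known for its role in smooth muscle genes.
Trpm5: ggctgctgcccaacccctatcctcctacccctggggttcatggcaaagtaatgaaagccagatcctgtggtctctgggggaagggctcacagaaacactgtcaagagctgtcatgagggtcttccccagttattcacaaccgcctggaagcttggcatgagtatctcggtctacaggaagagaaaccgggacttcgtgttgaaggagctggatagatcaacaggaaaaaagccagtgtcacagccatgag
Tmc4: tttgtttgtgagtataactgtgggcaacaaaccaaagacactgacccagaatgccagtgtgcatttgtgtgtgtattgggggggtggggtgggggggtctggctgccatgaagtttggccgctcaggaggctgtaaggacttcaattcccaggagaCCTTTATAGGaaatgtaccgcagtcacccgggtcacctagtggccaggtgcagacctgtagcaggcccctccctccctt
Trpc6: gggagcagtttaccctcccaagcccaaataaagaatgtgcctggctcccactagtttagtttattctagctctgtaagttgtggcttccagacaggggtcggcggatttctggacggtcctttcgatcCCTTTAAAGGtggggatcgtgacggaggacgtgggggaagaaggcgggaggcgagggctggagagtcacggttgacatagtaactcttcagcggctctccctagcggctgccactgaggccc

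A CArG box was found upstream of Tmc4 and of Trpc6 but these letters were not found upstream of Trpm5. Of 32851 RefSeq promoter windows of 250 bases, 1.47% held one. The motif AACCGGTT, which Grainyhead-like factors bind, occurred in 0.116% of the windows and the motif GGAATG, which TEAD factors bind, in 12.6%, both strands counted. Neither occurred in the 3 sequences shown. 51 of the 67 genes had a promoter entry. The CArG box occurred upstream of 3 members, AACCGGTT of 0 and GGAATG of 7. These are counts of genes, whereas the shares above are of windows, and the 32851 windows belong to 27025 genes. The counts and the shares are thus not in the same unit. Upstream of Trpm7, Trpv6 and Scnn1g, whose groups did not overlap either, no CArG box was found. A match of letters is a description of the window and says nothing of whether a factor binds there.

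Trpm5, of the melastatin TRP channels (TRPM), was the only one of the 65 tested genes called higher in muscle. It had 57.8, 53.7 and 58.1 CPM in muscle replicates 1 to 3 and 5.0, 10.8 and 8.98 CPM in epithelium replicates 1 to 3. The muscle libraries lay within a narrow range and all were above the highest epithelial one. The mean was 56.5 ± 2.46 CPM in the muscle libraries and 8.27 ± 2.98 in the epithelial ones (SD, n = 3), a log2FC of 2.78 ± 0.32 (SE, adjusted p = 0.0010, edgeR), or 6.88-fold. In sorted populations, fewer cells with a transcript and less of it per cell cannot be told apart. TRPM5 is best known from taste cells and tuft cells, where it turns a calcium signal into depolarisation. The call held in all 16 alternative fits, and without the libraries with many background counts the log2FC was 3.35 (adjusted p = 0.0023, edgeR). Trpm5 lies at chr7:143069153-143094642 on the minus strand (GENCODE M21, GRCm38). 220 bases of its exons (3.44% of their length) are shared with Tssc4 on the other strand, and the libraries are not stated to keep strand. Tssc4 had 158 ± 35.7 CPM in muscle and 164 ± 46.4 in epithelium. This was a log2FC of -0.05 (adjusted p = 0.97, edgeR).

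Trpm4, the other calcium-activated monovalent cation channel gene of the family, differed in the opposite direction. It had 41.9, 25.3 and 34.5 CPM in muscle replicates 1 to 3 and 91.1, 71.9 and 79.5 CPM in epithelium replicates 1 to 3. All epithelial libraries were above all muscle libraries. The mean was 33.9 ± 8.35 CPM in the muscle libraries and 80.9 ± 9.68 in the epithelial ones (SD, n = 3), and the log2FC was -1.25 ± 0.26 (adjusted p = 0.015, edgeR), that is 2.39-fold higher in epithelium. The call was lost without muscle replicate 3 (adjusted p = 0.058) and without epithelium replicate 1 (0.053). Without the libraries with many background counts the log2FC was -1.44 (adjusted p = 0.020, edgeR). Trpm4 lies at chr7:45302632-45333780 on the minus strand and shares no exon bases with another gene. Per kilobase of coding length, Trpm5 stood at 1.44, 2.23 and 1.77 times the level of Trpm4 in muscle replicates 1 to 3. In epithelium replicates 1 to 3 it stood at 0.058, 0.16 and 0.12 times. The ratio thus lay above 1 in each muscle library and under 0.2 in each epithelial one.

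**Figure D3:**
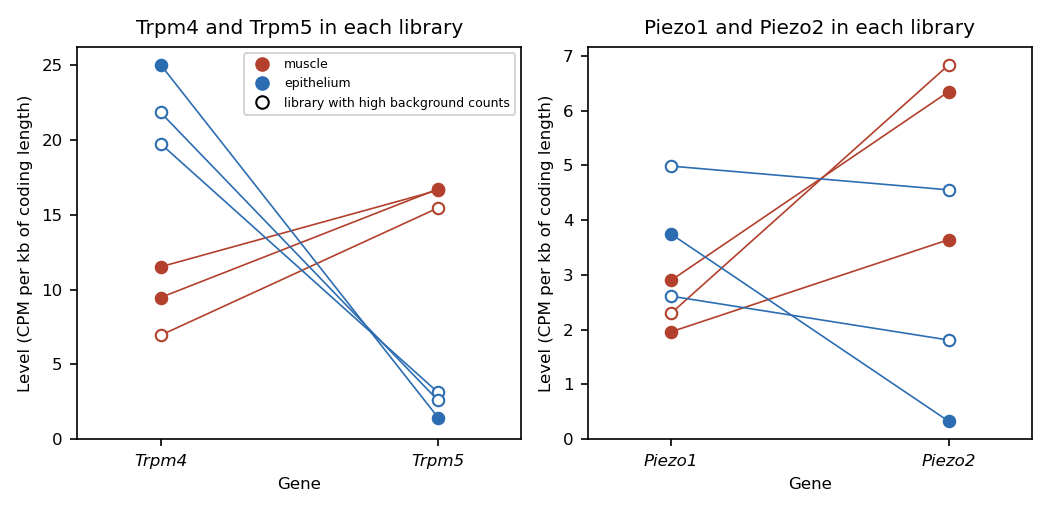
Levels in CPM per kilobase of coding length of Trpm4 and Trpm5 (left) and of Piezo1 and Piezo2 (right), with 1 line per library and open points for the libraries with many background counts. Trpm5 is above Trpm4 in all 3 muscle libraries and under it in all 3 epithelial libraries, and Piezo2 is above Piezo1 in all 3 muscle libraries and under it in all 3 epithelial libraries.

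Trpm7, a ubiquitous channel that is also a kinase and carries magnesium and calcium, was abundant in both populations. It had 104, 72.6 and 82.8 CPM in muscle replicates 1 to 3 and 64.8, 70.3 and 62.4 CPM in epithelium replicates 1 to 3. The groups did not overlap, but the log2FC was small at 0.40 ± 0.23 and did not pass (adjusted p = 0.41, edgeR). Without the libraries with many background counts it was 0.35 (adjusted p = 0.47). The other 5 genes of the family (Trpm1, Trpm2, Trpm3, Trpm6 and Trpm8) were each higher in all 3 libraries with many background counts than in the rest. Their log2FC values ran from -2.06 to -0.24 and none passed. Trpm3 shows the pattern: it had 2.55, 20.7 and 2.43 CPM in muscle replicates 1 to 3 and 0.836, 16.8 and 12.6 CPM in epithelium replicates 1 to 3.

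Tmc4 had the largest difference of the 65 tested genes. The Tmc genes encode transmembrane channel-like proteins, of which TMC1 and TMC2 are the mechanotransduction channels of inner-ear hair cells. Tmc4 had 3.92, 4.94 and 4.22 CPM in muscle replicates 1 to 3 and 91.7, 60.5 and 105 CPM in epithelium replicates 1 to 3. The muscle libraries lay close together and far under the lowest epithelial one. The mean was 4.36 ± 0.527 CPM in the muscle libraries and 85.6 ± 22.7 in the epithelial ones (SD, n = 3), a log2FC of -4.30 ± 0.30 (adjusted p = 0.00011, edgeR), so that Tmc4 was 19.7-fold higher in epithelium. The call held in all 16 alternative fits, with log2FC values from -4.68 to -4.22. Tmc4 lies at chr7:3665790-3677553 on the minus strand. It shares 51 exon bases with Leng1 on the same strand and 594 with Gm15929, an antisense gene not analysed here. Leng1 had a log2FC of 0.62 (adjusted p = 0.24, edgeR).

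The other 7 Tmc genes did not pass. Tmc6 and Tmc7 had counts in every library, and their groups overlapped. Tmc7 had 11.7 ± 1.38 CPM in the muscle libraries and 16.1 ± 4.66 in the epithelial ones (SD, n = 3), and its log2FC of -0.46 ± 0.33 had an adjusted p of 0.56 in edgeR. Tmc6 had 12.6 ± 3.03 CPM in the muscle libraries and 11.4 ± 5.57 in the epithelial ones, with a log2FC of 0.14 ± 0.44 (adjusted p = 0.94). The hair-cell genes Tmc1 and Tmc2 had no counts in epithelium replicate 1, where 3 counts correspond to 0.056 CPM, and at most 0.53 CPM in muscle replicates 1 and 3. In the libraries with many background counts they had 4.69 to 10.5 CPM. Tmc3, Tmc5 and Tmc8 stood at means of 1.10 to 2.94 CPM in both populations, and each was higher in all 3 of those libraries than in the others.

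The 3 subunit genes of the epithelial sodium channel were low and had higher means in epithelium, and none passed the threshold. Scnn1g, the gamma subunit, had 0.228, 3.84 and 2.65 CPM in muscle replicates 1 to 3 and 15.0, 9.02 and 9.69 CPM in epithelium replicates 1 to 3. Its groups did not overlap, and the log2FC of -2.33 ± 0.89 had an adjusted p of 0.15 in edgeR. Scnn1a, the alpha subunit needed for a conducting channel, had 0.608, 4.09 and 2.22 CPM in muscle replicates 1 to 3 and 4.70, 8.02 and 7.55 CPM in epithelium replicates 1 to 3. Its groups did not overlap either, with a log2FC of -1.55 ± 0.86 (adjusted p = 0.38, edgeR). Scnn1b, the beta subunit, overlapped, with 2.29 ± 0.451 CPM in the muscle libraries and 3.70 ± 1.34 in the epithelial ones (SD, n = 3) and a log2FC of -0.69 ± 0.94 (adjusted p = 0.86). Scnn1g passed in 1 of the 16 alternative fits, the Wald test of DESeq2 (adjusted p = 0.049), and Scnn1a and Scnn1b in none. Without the libraries with many background counts the log2FC values were -3.54 for Scnn1g, -1.90 for Scnn1a and -1.24 for Scnn1b (adjusted p = 0.11, 0.21 and 0.28, edgeR).

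Of 15 regulators of that channel, 3 were called in edgeR, each with a higher level in epithelium, a direction called for 4.11% of all tested genes. 2 of the 3 encode membrane serine proteases: Prss8, the channel-activating protease prostasin, had 0.835 ± 0.835 CPM in the muscle libraries and 146 ± 50.7 in the epithelial ones (SD, n = 3) and a log2FC of -7.54 ± 0.71 (adjusted p = 0.00047, edgeR). St14, matriptase, had a log2FC of -6.28 ± 0.83 (adjusted p = 0.0020). Hsd11b2, which inactivates glucocorticoids and so guards the mineralocorticoid receptor, had 3.55 ± 1.71 CPM in the muscle libraries and 18.1 ± 7.78 in the epithelial ones and a log2FC of -2.35 ± 0.49 (adjusted p = 0.016). Nedd4l, the ubiquitin ligase that removes the channel from the membrane, had a log2FC of 0.39 ± 0.35 (adjusted p = 0.70), and Sgk1, the kinase that restrains Nedd4l, had 0.73 ± 0.31 (adjusted p = 0.22). The median log2FC of the 15 genes was -0.03, against -0.10 over all tested genes. Over all 70 tested partner genes of the channels, 5 were called for muscle and 9 for epithelium, where 6.58% and 4.11% of all tested genes were called. Values of single partner genes come from all 6 libraries.

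None of the 9 voltage-gated sodium channel alpha subunit genes passed the threshold, and 8 of the 9 had a negative log2FC. 7 of the 9 were higher in all 3 libraries with many background counts than in the others. Scn3a, of embryonic neurons, had 8.39 ± 6.44 CPM in the muscle libraries and 8.37 ± 7.64 in the epithelial ones (SD, n = 3) and a log2FC of 0.01 ± 0.82 (adjusted p = 0.998, edgeR), whose sign changed with the scaling. Scn7a, the atypical sodium-sensing subunit, had 0.722, 6.39 and 1.97 CPM in muscle replicates 1 to 3 and 0, 10.4 and 4.73 CPM in epithelium replicates 1 to 3, with a log2FC of -0.74 ± 1.67 (adjusted p = 0.93). Scn7a had no counts in epithelium replicate 1, and against 3 counts in that 1 library its mean in muscle replicates 1 and 3 was 24.2-fold higher. Epithelium replicates 2 and 3 lay above muscle replicates 1 and 3, so this gives no bound on a difference between the tissues.

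None of the 4 beta subunit genes passed. Scn2b had 5.27 ± 1.90 CPM in the muscle libraries and 5.88 ± 2.29 in the epithelial ones (SD, n = 3), Scn3b had 4.77 ± 3.55 CPM in the muscle libraries and 3.36 ± 1.78 in the epithelial ones and Scn4b had 2.45 ± 3.51 CPM in the muscle libraries and 4.63 ± 4.35 in the epithelial ones, and their adjusted p in edgeR was 0.96, 0.90 and 0.89. Summed levels of 9 neuronal markers were 25.2 to 73.4 CPM in muscle and 28.8 to 89.1 CPM in epithelium, and none of the 9 passed. Summed levels of 7 skeletal muscle markers were 96.2 to 791 CPM in muscle and 7.81 to 43.6 CPM in epithelium, and 1 of them, Acta1, was higher in muscle. Scn4a, the sodium channel gene of skeletal muscle, had 3.02 ± 1.79 CPM in the muscle libraries and 4.43 ± 4.74 in the epithelial ones (adjusted p = 0.93). The part of such cells in these values was not tested.

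Of 8 genes of sodium channel partners, 2 were called for epithelium and none for muscle, where 4.11% and 6.58% of all tested genes were called. Their median log2FC was -0.56. Ank3, ankyrin-G, which anchors sodium channels to the membrane skeleton, had 27.6 ± 8.54 CPM in the muscle libraries and 127 ± 16.3 in the epithelial ones (SD, n = 3) and a log2FC of -2.20 ± 0.28 (adjusted p = 0.0016, edgeR). Fgf14, an intracellular factor that binds the tail of the alpha subunit, had a log2FC of -2.15 ± 0.55 (adjusted p = 0.037). Nalcn, the sodium leak channel, had 0.95, 5.94 and 0.506 CPM in muscle replicates 1 to 3 and 19.8, 18.6 and 23.2 CPM in epithelium replicates 1 to 3. Its log2FC was -3.08 ± 0.83 (adjusted p = 0.047, edgeR), whereas its partner genes Unc79, Unc80 and Fam155a did not pass. Ank3, Fgf14 and Nalcn thus all passed with higher means in epithelium.

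The Piezo genes, which encode stretch-activated cation channels, had opposite signs, and neither passed. Piezo1 had 15.0, 17.6 and 22.2 CPM in muscle replicates 1 to 3 and 28.6, 38.1 and 19.9 CPM in epithelium replicates 1 to 3. The groups overlapped in 1 pair of libraries, muscle replicate 3 and epithelium replicate 3, and the log2FC was -0.66 ± 0.30 (adjusted p = 0.25, edgeR). 24.6% of the exon length of Piezo1 is shared with Ctu2 on the other strand, which had a log2FC of 0.02. Without the libraries with many background counts the log2FC of Piezo1 was -0.81 (adjusted p = 0.25, edgeR). Piezo2 had 30.9, 57.9 and 53.8 CPM in muscle replicates 1 to 3 and 2.75, 38.6 and 15.3 CPM in epithelium replicates 1 to 3. The 3 epithelial libraries of Piezo2 spanned from 2.75 to 38.6 CPM, and the highest of them lay above muscle replicate 1. Its log2FC was 1.34 ± 0.74 (adjusted p = 0.37, edgeR). Piezo2 passed as higher in muscle in 3 of the 16 alternative fits: limma-voom (log2FC 2.65, adjusted p = 0.017), the fit with the background covariate (2.43, adjusted p = 0.038) and the fit without the 3 libraries with many background counts (3.76, adjusted p = 0.0058). Per kilobase of coding length, Piezo2 was at 1.86, 2.97 and 2.19 times the level of Piezo1 in muscle replicates 1 to 3 and at 0.087, 0.91 and 0.69 times in epithelium replicates 1 to 3. In epithelium replicates 1 to 3, the summed level of 5 endothelial markers was 1.17, 47.0 and 19.5 CPM. That of the receptor genes was 7.40, 1439 and 603 CPM, and both were in the order of the Piezo2 levels. The summed neuronal markers (28.8, 89.1 and 43.4 CPM) and immune markers (4.07, 27.7 and 16.7 CPM) had the same order there. In muscle replicates 1 to 3 the endothelial sum was 39.2, 50.2 and 58.0 CPM. The receptor sum was 45.1, 779 and 30.1 CPM, and neither the endothelial nor the receptor sum was in the order of Piezo2. The neuronal sum was 25.2, 73.4 and 29.5 CPM in muscle replicates 1 to 3 and the immune sum 3.19, 28.6 and 11.9 CPM. Both of these were in the order of Piezo2. The part of such cells or counts in the Piezo2 levels was not tested.

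Of 17 tested genes of other mechanosensitive channels and channel partners, 2 were called, both of them higher in muscle, a direction called for 6.58% of all tested genes. Calls in either direction were made for 10.7% of all tested genes. The median log2FC of the 17 was -0.08. Stom, stomatin, a membrane protein of a family that modulates mechanosensitive and acid-sensing channels, had 207 ± 30.6 CPM in the muscle libraries and 13.7 ± 1.91 in the epithelial ones (SD, n = 3) and a log2FC of 3.91 ± 0.26 (adjusted p = 9.6e-05, edgeR). Cib2, a calcium-binding partner of the TMC channels in hair cells, had 23.2 ± 5.77 CPM in the muscle libraries and 4.95 ± 3.37 in the epithelial ones and a log2FC of 2.24 ± 0.51 (adjusted p = 0.022). Mdfic, whose product binds PIEZO channels as an auxiliary subunit, had a log2FC of 1.11 ± 0.40 and did not pass (adjusted p = 0.13).

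Of the canonical TRP channels (TRPC), which open downstream of phospholipase C, none of the 6 tested genes passed. Trpc6, which is opened by diacylglycerol and is known from vascular and visceral smooth muscle, had 9.62, 5.09 and 6.88 CPM in muscle replicates 1 to 3 and 0.0372, 3.74 and 2.25 CPM in epithelium replicates 1 to 3. Its muscle libraries were all above its epithelial ones, with 2 counts in epithelium replicate 1. The log2FC was 1.85 ± 1.23 (adjusted p = 0.51, edgeR), and Trpc6 passed in 1 of 16 alternative fits, that without the 3 libraries with many background counts (adjusted p = 0.0044). Trpc1 had 2.21 ± 2.15 CPM in the muscle libraries and 2.86 ± 1.93 in the epithelial ones (SD, n = 3) and a log2FC of -0.37 ± 1.25 (adjusted p = 0.95, edgeR). The sign of Trpc1 changed with the setting. Trpc4, Trpc5 and Trpc7 had log2FC values of -0.35, 0.39 and 0.00014. Trpc2 was listed at 0 in all libraries. In GENCODE, its whole exon length belongs also to other genes. Trpc4ap, the non-channel gene, had 197 ± 69.9 CPM in the muscle libraries and 229.9 ± 63.1 in the epithelial ones (log2FC -0.23 ± 0.33, adjusted p = 0.88).

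Of 15 genes of store- and receptor-operated calcium entry, the partners of the TRPC channels, 4 were called, 2 in each direction, where 6.58% (muscle) and 4.11% (epithelium) of all tested genes were called. Their median log2FC was 0.15. In muscle these were Orai3, a pore subunit of the store-operated channel, at 82.6 ± 9.84 CPM in the muscle libraries and 42.7 ± 4.97 in the epithelial ones (SD, n = 3) with a log2FC of 0.95 ± 0.22 (adjusted p = 0.027, edgeR), and Plcb1, a phospholipase C, with 1.86 ± 0.33 (adjusted p = 0.0078). In epithelium they were Stim2, a calcium sensor of the endoplasmic reticulum, with -2.32 ± 0.36 (adjusted p = 0.0038), and the scaffold gene Homer2, with -1.56 ± 0.37 (adjusted p = 0.026). Stim1, the sensor most known for store-operated entry, had a log2FC of 0.56 ± 0.28 (adjusted p = 0.29).

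The vanilloid TRP channel genes (TRPV) and Trpa1 did not pass. Trpv6, a calcium-selective epithelial channel, had 0.266, 2.70 and 0.708 CPM in muscle replicates 1 to 3 and 5.58, 9.89 and 5.71 CPM in epithelium replicates 1 to 3. Every epithelial library was above every muscle library, and the log2FC was -2.53 ± 1.02 (adjusted p = 0.18, edgeR). It passed in 5 of 16 alternative fits, with an adjusted p of 0.030 without muscle replicate 2 and a log2FC of -3.67 (adjusted p = 0.032) without the 3 libraries with many background counts. Trpv4, a channel opened by osmotic swelling and warmth, had 4.30 ± 3.68 CPM in the muscle libraries and 5.36 ± 3.98 in the epithelial ones (SD, n = 3) and a log2FC of -0.32 ± 0.91 (adjusted p = 0.94), with a sign that changed with the setting. It was -0.56 (adjusted p = 0.72) without the 3 libraries with many background counts, and that of Trpa1 was -0.67 (adjusted p = 0.88). Trpv2, named after its values were seen, had 22, 9.98 and 21.2 CPM in muscle replicates 1 to 3 and 0.446, 14.8 and 6.61 CPM in epithelium replicates 1 to 3. Its log2FC was 1.3 ± 0.92 (adjusted p = 0.56, edgeR), and without the 3 libraries with many background counts it was 5.41 (adjusted p = 0.0024). Trpv1, Trpv3 and Trpv5, with Trpa1, the irritant receptor of sensory neurons, had means of 0.22 to 1.85 CPM in both populations. Trpa1 had 0.304, 1.65 and 0 CPM in muscle replicates 1 to 3 and 0.204, 2.21 and 1.46 CPM in epithelium replicates 1 to 3, and its log2FC was -0.99 ± 2.13 (adjusted p = 0.92).

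**Figure D4:**
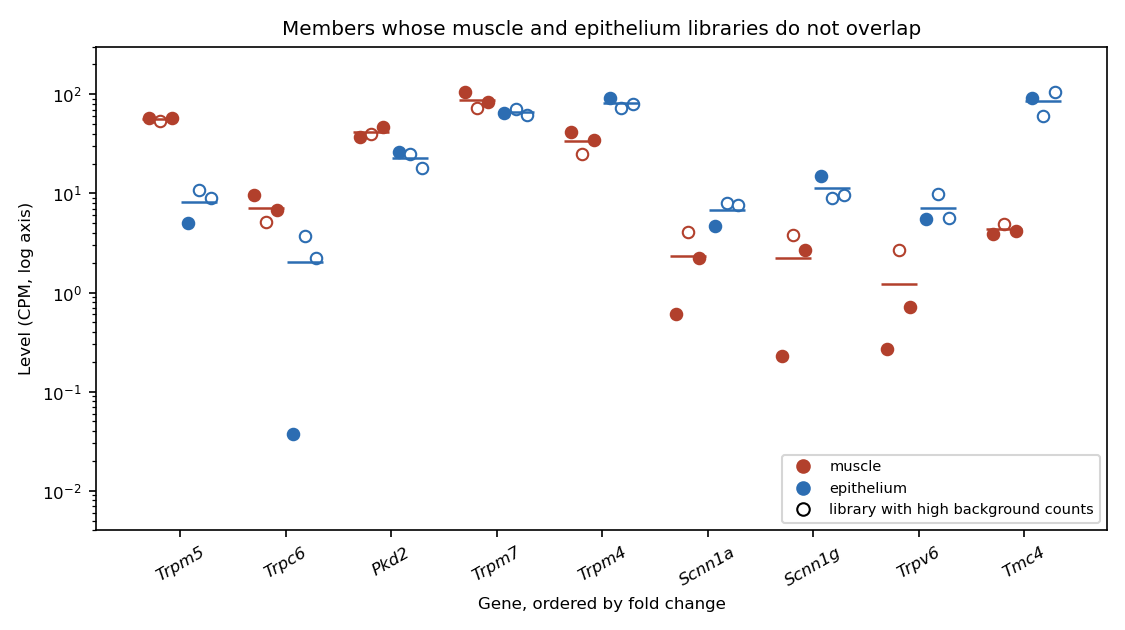
Level in CPM (log axis) in each library of 9 genes whose muscle (red) and epithelium (blue) libraries do not overlap and whose average log2 CPM is at least 2, with the group mean as a line and open points for libraries with many background counts. Trpm5, Trpm4 and Tmc4 passed an adjusted p of 0.05, and in Scnn1g, Scnn1a and Trpv6 muscle replicate 2 is the highest muscle library.

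Pkd1 and Pkd2 encode the polycystins, the large receptor-like protein and the cation channel that form a complex in primary cilia. Both had higher means in muscle and neither passed. Pkd2 had 37.2, 39.9 and 46.4 CPM in muscle replicates 1 to 3 and 25.9, 25.1 and 18 CPM in epithelium replicates 1 to 3. The groups did not overlap, and the log2FC of 0.84 ± 0.24 had an adjusted p of 0.063 in edgeR, from 0.055 to 0.38 over the 16 alternative fits, none of which passed. Without the 3 libraries with many background counts the log2FC of Pkd2 was 0.51 (adjusted p = 0.38) and that of Pkd1 0.62 (adjusted p = 0.25). Pkd1 had 88.7, 75.1 and 132 CPM in muscle replicates 1 to 3 and 63.3, 80.5 and 41.6 CPM in epithelium replicates 1 to 3, with a log2FC of 0.68 ± 0.32 (adjusted p = 0.27). Per kilobase of coding length, Pkd2 stood at 1.93 ± 0.40 (SD, n = 3) times Pkd1 in muscle and at 1.71 ± 0.28 times in epithelium, a difference smaller than the spread. Pkd2l2 was at 6.19 ± 0.992 CPM in the muscle libraries and 7.72 ± 1.96 in the epithelial ones. Pkd1l2, Pkd1l3 and Pkd2l1 were higher in all 3 libraries with many background counts than in the others. None of 8 genes of polycystin and lysosomal channel neighbours passed, and their median log2FC was 0.50. Bicc1, a cyst-related RNA-binding protein gene, came closest, with a log2FC of 1.39 ± 0.39 (adjusted p = 0.052, edgeR).

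Mcoln1, the cation channel of late endosomes and lysosomes, was the mucolipin gene at a high level in both populations, with 23.4, 22.8 and 41.1 CPM in muscle replicates 1 to 3 and 50.3, 23.2 and 40.1 CPM in epithelium replicates 1 to 3. The groups overlapped, and the log2FC was -0.38 ± 0.35 (adjusted p = 0.73, edgeR). It was -0.82 (adjusted p = 0.23) without the 3 libraries with many background counts. Mcoln3 was low, at 1.09 ± 0.698 CPM in the muscle libraries and 4.31 ± 0.423 in the epithelial ones (SD, n = 3), and its groups did not overlap (log2FC -1.98 ± 1.11, adjusted p = 0.39). Mcoln2 had 0, 2.25 and 0 CPM in muscle replicates 1 to 3 and 0.0929, 2.87 and 1.65 CPM in epithelium replicates 1 to 3. It was higher in all 3 libraries with many background counts than in the others.

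The acid-sensing channel genes, known from sensory neurons, and the pacemaker channel genes (HCN) were low and did not pass. Asic3 had 3.12, 2.50 and 4.55 CPM in muscle replicates 1 to 3 and 0.743, 1.34 and 1.05 CPM in epithelium replicates 1 to 3, with no overlap between the groups (log2FC 1.70 ± 1.16, adjusted p = 0.53, edgeR). Asic4 overlapped between the groups. Asic1, Asic2, Asic5 and Hcn4 were higher in all 3 libraries with many background counts than in the others. Among the HCN genes, Hcn3 had 9.26 ± 4.57 CPM in the muscle libraries and 6.28 ± 1.62 in the epithelial ones (SD, n = 3) and a log2FC of 0.56 ± 0.53 (adjusted p = 0.74). Hcn2 was not tested for lack of counts, with 0, 18 and 0 counts in muscle and 0, 1 and 20 in epithelium. It was at or under the 95th percentile of the receptor genes in all libraries, as were Pkd2l1, Trpc2 and Trpv1. Of 4 partner genes, 1 was called for muscle (6.58% of all tested genes) and 1 for epithelium (4.11%). Flna, the actin crosslinker filamin A, was higher in muscle (log2FC 2.46 ± 0.43, adjusted p = 0.0066, edgeR). Kcne2, a beta subunit, was called higher in epithelium (adjusted p = 0.043), with 3.4, 4.81 and 4.54 CPM there and 2, 0 and 0 counts in muscle.

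Levels of different genes were compared per kilobase of coding length (GENCODE M21). This leaves out the untranslated parts of exons, which can also draw counts. Scn2b had 645 coding and 4656 exon bases, Mcoln1 1740 and 7555, Trpm5 3474 and 6398, and Pkd2 2898 and 10169. The places and ratios between genes thus hold for coding length only, and those by exon length were not computed. In muscle, Mcoln1 stood at 16.7 ± 5.98 CPM per kilobase (SD, n = 3), Trpm5 at 16.3 ± 0.71, Trpm7 at 15.5 ± 2.91 and Pkd2 at 14.2 ± 1.64. Each pair of neighbours in this order differed by less than the larger SD of the pair. Trpm4 followed at 9.31 ± 2.29. In epithelium, Tmc4 stood first of the 66 channel genes at 41.1 ± 10.9 CPM per kilobase. Trpm4 at 22.2 ± 2.66 and Mcoln1 at 21.8 ± 7.86 followed and differed by less than their spread, then Trpm7 at 11.8 ± 0.73 and Scn2b at 9.11 ± 3.55. Trpm5 was in place 2 in muscle and in place 22 in epithelium, and Tmc4 in place 19 in muscle and in place 1 in epithelium.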

How the data were processed

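RNA was measured in 6 libraries of sorted cells, 3 of muscle and 3 of epithelium, grouped by their titles. Per the labels' protocols, cDNA came from an ultra-low-input SMART-Seq kit and libraries from Nextera XT. The deposited values are whole-number counts per gene symbol. Per the submitters' processing notes, Trim Galore, Bowtie2, Cufflinks and DESeq and the build mm10 were used, with no role stated. The counting program is not given in the sources used here. Of counts from 1 to 19, 73.8% to 79.6% per library were even.

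Genes were filtered with filterByExpr, scaled by TMM and tested in edgeR 4.0.16 (R 4.3.3) by its quasi-likelihood F test, which is two-sided. P-values were adjusted by Benjamini-Hochberg across the 19375 genes that passed the filter. The threshold was 0.05. CPM values are counts scaled by library sizes times TMM factors. Standard errors derive from the test statistic. The script was tested on simulated data. 3 counts correspond to 0.056 to 0.20 CPM, a floor that reflects counting error alone. For 3 against 3 libraries, the smallest p of an exact permutation test is 0.10.

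The members and lists were chosen with earlier results of these data known. Named are members past the threshold, members without overlap whose average log2 CPM reaches 2, and a list of genes of prior interest. 4 members count in the totals but are not reported one by one here. Others are named after their values were seen. Coding lengths were planned from RefSeq proteins and taken from GENCODE M21 instead. Promoter sequence is from RefSeq. Alternatives were other scalings, no filter, DESeq2 1.42.0, limma-voom (limma 3.58.1), a replicate block, a background covariate, halved counts, header subsets and leaving out libraries.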

Additional observations from a re-analysis of the deposited data

How the results depend on the processing

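Trpm5 and Tmc4 passed the threshold in all 16 alternative fits and Trpm4 in 14. The count of members higher in muscle, 1, became 3 with limma-voom, 2 with the background covariate and 5 without the 3 libraries with many background counts (added after seeing the data), and stayed at 1 when each library was left out. The count higher in epithelium, 2, became 5 with DESeq2, 4 with the later header number only, 4 without the 3 background libraries and 1 at an adjusted p under 0.01, and ranged from 1 (without muscle replicate 3 or epithelium replicate 1) to 4 (without muscle replicate 2) when leaving out a library. For the 70 tested partner genes, the counts were 5 for muscle and 9 for epithelium. The former became 8 with limma-voom, 8 with the background covariate, 10 with the later header number and 3 at an adjusted p under 0.01, the latter 4 at that threshold, and leaving out a library gave 3 to 7 and 4 to 11. The 3 came without muscle replicate 1, muscle replicate 3 or epithelium replicate 3, the 4 without muscle replicate 1, and 5 without muscle replicate 3, epithelium replicate 1 or epithelium replicate 3. Over all genes the calls numbered 2071, 3539 with DESeq2, 1323 without muscle replicate 1 and 1169 without epithelium replicate 3. Leaving out a library also moved the share of all tested genes called. Higher in muscle were 2.82% (without epithelium replicate 3) to 8.25% (without muscle replicate 2), against 6.58% with all 6 libraries. Higher in epithelium were 2.50% (without muscle replicate 1) to 4.58% (without muscle replicate 2), against 4.11%. Library totals moved the median log2 fold change of all genes from -0.10 to -0.33, and 18 of 19 tested named members kept their sign there. The following signs reversed, with the log2 fold change under the alternative. The cause was not tested. Scn3a had -0.086 with relative log expression, -0.23 with library totals, -0.087 with DESeq2, -0.0078 with halved counts, -0.74 without muscle replicate 2, -0.42 without epithelium replicate 1 and -0.26 without epithelium replicate 3. Scn7a had 3.32, 0.43 and 2.08 with limma-voom, the replicate block and the covariate, 0.46 without epithelium replicate 2 and 8.68 without the 3 background libraries, a value that depends on the prior count. Trpc1 had 0.057 with limma-voom, 0.039 with the covariate, 0.36 without the 3 background libraries, 0.01 without muscle replicate 1 and 0.11 without epithelium replicate 2. Trpv4 had 0.15 without muscle replicate 1 and 0.48 without epithelium replicate 2. The other ends of the leave-one-out ranges were 1.08 for Scn3a, -1.88 for Scn7a, -1.54 for Trpc1 and -1.21 for Trpv4. With the replicate block the counts of members stayed at 1 and 2, and those of the partner genes were 6 and 8. Deviations from the group means correlated at 0.59, 0.73 and -0.57 for the replicate numbers 1 to 3, and 3 of 6 libraries correlated best with their own number, so the numbers were not taken to pair the libraries. 3 counts correspond to 0.056 CPM in the deepest library and to 0.20 CPM in the shallowest, which limits what could be detected.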

Other observations

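All 3 members past the threshold lie on chromosome 7, as do 11 of the 67, a count made after the values were seen. The share of all called genes that lie on this chromosome is not given here, so the count allows no conclusion about position. Some of the protein-coding genes nearest to the 3 members are given here. Beside Trpm5, the tetraspanin gene Cd81 had 755 ± 99.3 CPM in muscle and 258 ± 20.4 in epithelium (SD, n = 3), a log2FC of 1.55 ± 0.23 (adjusted p = 0.0035, edgeR). On the other side, the potassium channel gene Kcnq1 had 1.08 ± 1.07 and 1.41 ± 0.51 CPM, and Cdkn1c, a cell cycle inhibitor gene, had a log2FC of -0.83 ± 0.48 (adjusted p = 0.41). Beside Tmc4, the log2FCs of Mboat7 and Cnot3 were 0.19 and 0.16 (adjusted p = 0.82 and 0.92, edgeR). Beside Trpm4, Hrc had 0.95 ± 0.48 (adjusted p = 0.31) and Ppfia3 -1.56 ± 0.45 (adjusted p = 0.060). The sodium channel alpha subunit gene Scn2a1, whose symbol the patterns do not take, had 11.2 ± 6.49 CPM in muscle and 10.9 ± 6.33 in epithelium (SD, n = 3), a log2FC of 0.03 ± 0.58 (adjusted p = 0.99, edgeR).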
